A study of Macaca nemestrina with 58 samples.

Results

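Mucins are large glycoproteins of wet epithelial surfaces. The members followed here are MUC1, MUC4, MUC13, MUC15, MUC16, MUC20 and MUC21, which are mostly known as membrane-bound mucins. They were chosen as the probe sets whose single gene symbol in the array annotation is one of these 7 names. Of 52865 probe sets on the array, 12 met this rule, and they cover 4 of the 7 genes: 4 probe sets for MUC1, 3 for MUC20, 2 for MUC15 and 3 for MUC13. No probe set carries MUC4, MUC16 or MUC21 as its only symbol in the annotation used here, so these 3 genes were not analysed here.

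Vaginal pinch biopsies of 15 pig-tailed macaques (Macaca nemestrina) were measured on 58 rhesus macaque expression arrays, so the probes read transcripts of a related species. DMPA, the injected progestin depot medroxyprogesterone acetate, went to 9 of the animals. The other 6 took a combined oral contraceptive, a progestin joined with an estrogen, and are labelled LNG. DMPA was sampled 8 times at 1D4 and 9 times at 2D2, the labels' names of the 2 times, with dose labels of 0.5, 1.5 and 2.5 that carry no unit. LNG was sampled 6 times at 5th and 6 times at 7th, also names from the labels, in 3 animals marked High and 3 marked Low for dose, and 5 of these 12 samples bear the mark (A-), whose meaning the labels leave unsaid. The same animals gave 28 untreated baseline samples, 17 from the DMPA animals and 11 from the LNG animals, with 10 in the early and 5 in the late follicular phase and 4 in the early and 9 in the late luteal phase. No untreated animal was sampled at the later times, so an effect of the drug cannot be told apart from one of time or of repeated biopsy. The ages of the animals are not given in the sources used here.

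A membrane-bound mucin spans the apical membrane of an epithelial cell and carries a long outer domain covered in O-linked sugars, which forms part of the glycocalyx between the cell and the lumen. The outer part can be cut off and shed, while the short inner tail of MUC1 binds signalling proteins. In the lower female genital tract of humans, surface mucins are known to hydrate and lubricate the squamous epithelium and to limit contact with microbes. The roles given below are known from human or mouse. In a bulk biopsy, fewer cells of a type and less RNA per cell cannot be told apart.

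The biopsies carried the RNA of stratified squamous epithelium. KRT13, a keratin of non-cornifying squamous epithelium, had a median of 13.9 on the log2 scale over the 57 samples, and TP63, the transcription factor of basal squamous cells, had a median of 12.0. The 11 genes of the columnar list had medians between 6.43 and 12.71 without the sample described next, among them KRT18 (6.43), KRT8 (7.97), EPCAM (10.32), WFDC2 (12.08) and KRT19 (12.71). Levels of different probe sets cannot be ranked, so these medians do not give the shares of the tissue types. The sample of animal BB4800 (Low) at LNG 5th stood apart from the other 56. Its TP63 value was 5.79, against 11.09 to 12.35 in the others, its EPCAM value (an epithelial adhesion molecule) was 5.45, against at least 8.35, and the mean of 10 stromal genes was 12.42, above 55 of the 56. It was below all other samples for 4 of 14 mature squamous, 1 of 4 basal and 3 of 11 columnar genes, and above all others for 5 of 10 stromal genes. On the same lists, it was above all others for 1 basal gene, CAV1 (12.82), and 1 columnar gene, KRT18 (8.46). Most MUC15 results and part of the others that this sample touches are given with and without it. This alternative was added after seeing the data. The LNG 5th changes of MUC1, MUC20 and MUC13 are given with it only. Array medians were alike, at 6.07 to 6.25, and precision is limited by how many arrays there are.

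Of the 12 mucin probe sets, 10 passed the filter on low signal, a mean over all samples of at least 5.53 on the log2 scale, and both that did not are MUC13's. Each gene is described by the probe set of its highest mean signal, and levels are compared only within a probe set. The 4 MUC1 probe sets varied together over the 57 samples after each animal's mean was subtracted (r = 0.98 to 0.99), as did the 2 brighter MUC20 probe sets (r = 0.98). The remaining MUC20 probe set followed them less closely (r = 0.44 and 0.48). The 2 MUC15 probe sets had r = 0.86, or 0.77 without the BB4800 sample. The 3 MUC13 probe sets had r = 0.02 to 0.26, so MUC13 rests on 1 probe set that no other bears out. These and all other correlations are descriptions over samples that share arrays and animals, and carry no test.

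**Figure D1:**
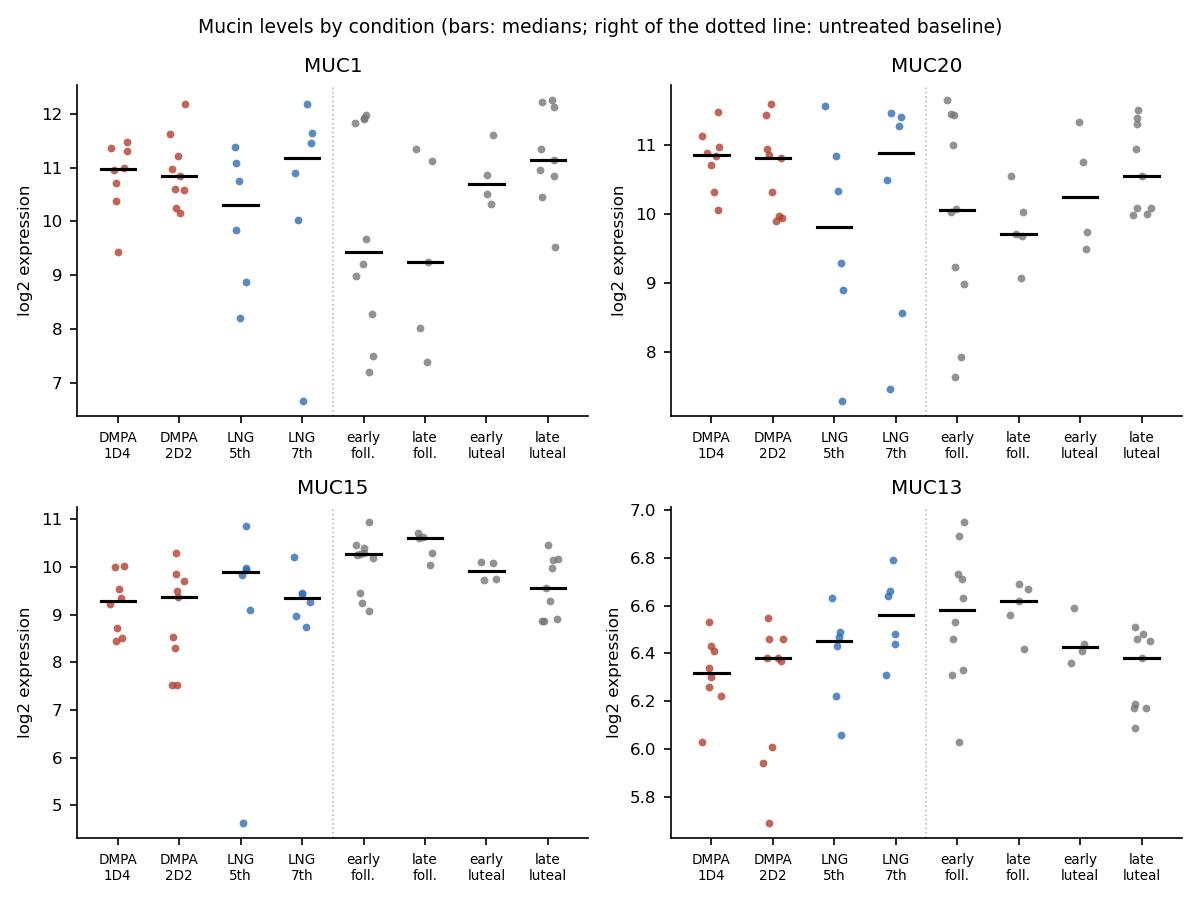
Log2 expression of MUC1, MUC20, MUC15 and MUC13 by condition, with 1 point per sample and a bar at the median of each condition; baseline phases are to the right of the dotted line. MUC1 spans 7.20 to 11.97 in the early follicular phase, and 1 LNG 5th sample has a MUC15 value of 4.62.

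MUC1, whose protein coats the apical surface of many epithelia, was higher in the late luteal than in the early follicular phase, the largest difference among the 4 members. In the late luteal phase its 9 samples had a lowest value of 9.52, a median of 11.14 and a highest value of 12.26 on the log2 scale. In the early follicular phase its 10 samples had a lowest value of 7.20, a median of 9.44 and a highest value of 11.97. The late luteal samples were all in the upper part of the range, whereas 5 of the 10 early follicular samples were below the lowest of them, and the groups overlapped above that. The fitted difference of late luteal minus early follicular was 1.75 ± 0.57 (log2, SE; 95% interval 0.60 to 2.91), a 3.37-fold higher level, with an adjusted p of 0.0383. Adjusted p values are from limma, with the animal as a block and the Benjamini-Hochberg method over all 31624 probe sets of a comparison, and a member passed at 0.05.

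All 4 MUC1 probe sets passed in this comparison, with differences of 1.71 to 2.31 and adjusted p values of 0.0353 to 0.0421. MUC1 was the only member of the 4 measured that passed, beside 13% of all probe sets (4110 of 31624) and 14.8% of all genes by their brightest probe set. The call was close to its threshold. It held in 12 of 25 alternative settings, in which the difference ranged between 1.36 and 2.12 and the adjusted p between 0.0107 and 0.229, and it was lost when any 1 of 8 animals was left out (BB0499, BB0540, BB173, BB269, BB4870, BB967, BB981 or PPi2). Over the 4 phases taken as 1 test, MUC1 had F = 3.93 and an adjusted p of 0.115, and 4.44% of all probe sets passed. The p values are not adjusted over the 6 pairs of phases.

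The same direction was seen within animals. Of the 6 animals with a biopsy in both phases, all 6 had more MUC1 signal in the late luteal biopsy, by 2.28 ± 1.59 on average (SD, n = 6). In BB0499 the late luteal value was 12.22 against 8.28 in the early follicular phase, in BB967 it was 11.35 against 7.51, and in BB4870 it was 12.26 against 8.98. In BB0540 it was 10.46 against 9.21, in PPi2 10.84 against 9.67, and in BB108 12.12 against 11.90. The early follicular values of these animals were spread over more than 4 units and the late luteal ones over less than 2. These values are from the samples of the test above and are not further support for it.

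**Figure D2:**
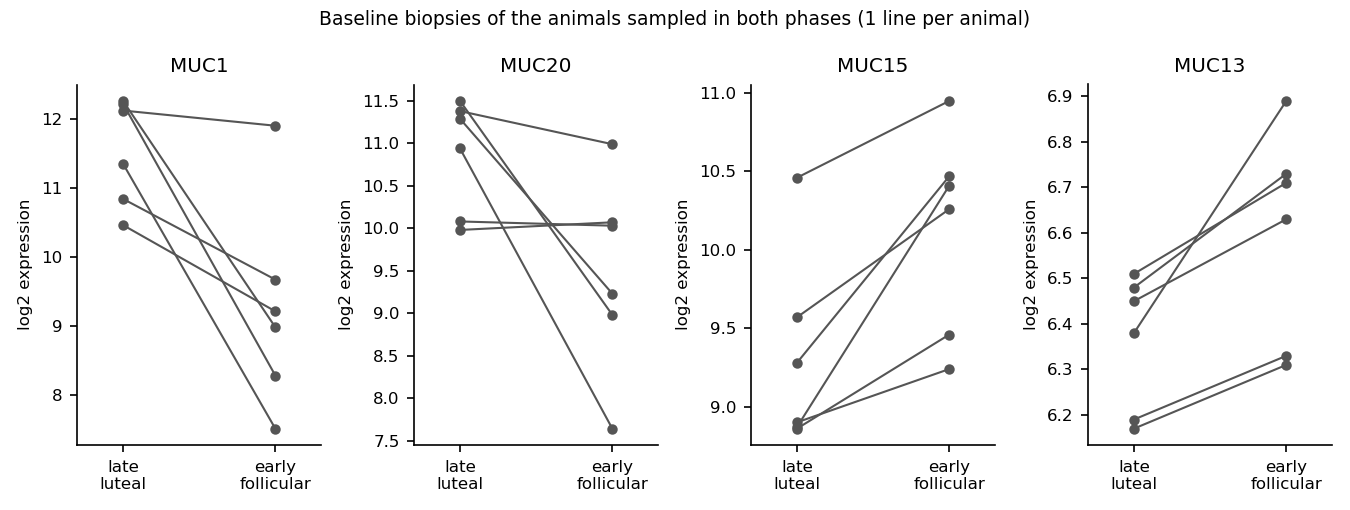
Log2 expression of 4 mucins in the 6 animals with baseline biopsies in both the late luteal (left) and the early follicular (right) phase, with 1 line per animal. MUC1 is higher in the late luteal biopsy of all 6 animals, whereas MUC15 and MUC13 are lower in all 6.

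For MUC1 in the other phases, the 4 early luteal samples had 11.61, 10.87, 10.50 and 10.32, and the 5 late follicular samples had 11.34, 11.12, 9.24, 8.03 and 7.40. The early luteal samples thus lay inside the late luteal range, and the late follicular samples were as widely spread as the early follicular ones. Late luteal minus late follicular was 1.89 ± 0.74 (adjusted p = 0.119, with 3.25% of all probe sets passing), and late minus early follicular was -0.14 ± 0.75 (adjusted p = 0.999). With both luteal phases set against both follicular phases, MUC1 ranged between 9.52 and 12.26 (median 10.95, SD 0.81, n = 13) in luteal samples and between 7.20 and 11.97 (median 9.24, SD 1.82, n = 15) in follicular samples. That difference was 1.27 ± 0.50 (adjusted p = 0.137), and 1.71% of all probe sets passed.

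MUC20, a surface mucin that in humans is known to bind the receptor MET, had the same direction with a smaller difference. Its late luteal samples had a lowest value of 9.98, a median of 10.55 and a highest value of 11.50, and its early follicular samples had 7.64, 10.05 and 11.65. The late luteal range lay inside the early follicular one. The fitted difference was 1.00 ± 0.43 (adjusted p = 0.107), with 5 of 6 animals higher. The second bright MUC20 probe set gave 1.10 ± 0.46 (adjusted p = 0.0961) and the dimmest -0.07 ± 0.15 (adjusted p = 0.796).

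MUC15 and MUC13 had the opposite direction, and neither passed. MUC15, a membrane mucin known from the milk fat globules of cows, had 8.86, 9.57 and 10.46 as its lowest, median and highest late luteal values and 9.08, 10.27 and 10.95 as its early follicular ones. The ranges overlapped over most of their length, yet all 6 animals with both biopsies had the lower value in the late luteal one, by 0.35 to 1.55. The fitted difference was -0.82 ± 0.38 (adjusted p = 0.136). Without the BB4800 sample it was -0.79 ± 0.24 (adjusted p = 0.0255), so that MUC15 passed beside MUC1, with 15.2% of all probe sets passing. With the GAPDH 3' minus 5' difference, a measure of RNA quality, as a covariate it was -0.44 ± 0.36 (adjusted p = 0.528); the difference had medians of 1.62 in late luteal and 1.51 in early follicular samples. MUC13, a mucin best known from the intestine, had 6.09, 6.38 and 6.51 in late luteal samples and 6.03, 6.58 and 6.95 in early follicular ones. Its difference was small, -0.21 ± 0.10 (adjusted p = 0.116), and all 6 animals with both biopsies had the lower value in the late luteal one. The 2 MUC13 probe sets below the filter did not share this, with the late luteal value higher in 4 of 6 and in 2 of 6 animals.

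Few markers of other tissue layers passed between these phases, beside 14.8% of all genes, but 2 of the lists shifted as a whole. The fitted differences of all 14 mature squamous genes were negative, -2.63 to -0.25 with a median of -1.35. Those of all 10 stromal genes were positive, 0.40 to 2.23 with a median of 1.11. The mean of 14 mature squamous genes had a lowest value of 9.14, a median of 12.57 and a highest value of 12.97 in late luteal samples, against 10.53, 12.82 and 13.14 in early follicular ones, and 1 of the 14 genes passed, downward. The mean of 10 stromal genes had 7.38, 9.65 and 10.93 in late luteal samples and 6.85, 8.72 and 9.57 in early follicular ones, and none of the 10 passed, although 3 had an unadjusted p under 0.05. Of 11 columnar genes 1 passed, upward, with a median difference of 0.27 over the list beside -0.01 over all genes. Their part in the mucin differences was not tested.

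After DMPA, none of the 4 members passed at either time, against backgrounds of 28.1% of all probe sets at 2D2 and 23.2% at 1D4. At an unadjusted p under 0.05 there were 2 members at 2D2, MUC15 and MUC13, both with lower values, and 0 at 1D4, beside 40.6% of all probe sets at 2D2 and 38.3% at 1D4. The 4 genes split as they had between the phases: MUC1 and MUC20 had positive changes at both times, and MUC15 and MUC13 negative ones. Both times and the phases share baseline samples, so these directions are not separate results.

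MUC1 had 10.16, 10.84 and 12.18 as its lowest, median and highest values at 2D2 and 9.44, 10.98 and 11.47 at 1D4, against 7.20, 10.46 and 12.22 in the 17 baseline samples of the same animals. No treated sample was under 9.44, whereas the baseline samples reached down to 7.20. Over both times the SD was 0.64 in the 17 treated samples, against 1.67 in the 17 baseline samples, a difference in spread that was not tested. The fitted change from baseline was 0.75 ± 0.53 at 2D2 (95% interval -0.33 to 1.83, adjusted p = 0.294) and 0.85 ± 0.56 at 1D4 (adjusted p = 0.264). MUC1 was above the animal's own baseline mean in 8 of 9 animals at 2D2 and in 6 of 8 at 1D4, with changes between -0.83 and 2.58 at 2D2.

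MUC20 had 9.90, 10.80 and 11.59 at 2D2 and 10.05, 10.85 and 11.47 at 1D4, against 7.92, 10.07 and 11.65 in the baseline samples of these animals. As for MUC1, the treated samples lay in the upper part of the baseline range, with an SD of 0.55 over both times against 0.94 at baseline. The fitted changes were 0.40 ± 0.38 at 2D2 (adjusted p = 0.452) and 0.67 ± 0.40 at 1D4 (adjusted p = 0.219). The change was positive in 6 of 9 animals at 2D2 and in 7 of 8 at 1D4.

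MUC15 had 7.52, 9.37 and 10.30 as its lowest, median and highest values at 2D2 and 8.44, 9.29 and 10.02 at 1D4, against 8.86, 9.75 and 10.64 in the baseline samples of these animals. The lower end extended below every baseline sample and the upper ends overlapped. MUC15 was under the animal's own baseline mean in 8 of 9 animals at 2D2 and in 7 of 8 at 1D4. The lowest values at 2D2 were those of BB405, with 7.52, and BB0499, with 7.53. The fitted change was -0.85 ± 0.34 at 2D2 (95% interval -1.54 to -0.16, adjusted p = 0.0566) and -0.66 ± 0.36 at 1D4 (adjusted p = 0.169).

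The 2D2 value stood next to the threshold, and the call depended on the setting, with MUC15 passing in 8 of 26 alternatives. Leaving out 1 library of the other arm was enough to change it. Without the LNG 5th sample of BB4800, which enters through the shared estimate of the spread, the change was -0.85 ± 0.23 at 2D2 (adjusted p = 0.00526) and -0.66 ± 0.24 at 1D4 (adjusted p = 0.0385), with 30% and 25.2% of all probe sets passing. The dimmer MUC15 probe set gave -0.21 ± 0.31 at 2D2 (adjusted p = 0.647). The GAPDH control probe sets' 3' minus 5' difference had a lowest value of 1.39, a median of 2.22 and a highest value of 3.95 at 2D2, against 1.29, 1.58 and 2.63 in the baseline samples of these animals. With this difference as a covariate, the MUC15 change at 2D2 was 0.06 ± 0.37 (adjusted p = 0.98), and that at 1D4, where the GAPDH difference had a median of 2.02, was -0.31 ± 0.32 (adjusted p = 0.571).

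MUC13 had 5.69, 6.38 and 6.55 at 2D2 and 6.03, 6.32 and 6.53 at 1D4, against 6.03, 6.44 and 6.95 in the baseline samples of these animals. The ranges overlapped in part, with 3 of the 9 samples at 2D2 below every baseline value. The mean of this probe set was 6.41, near the array medians of 6.07 to 6.25 and above the filter at 5.53. Whether its signal is above background was not tested. The fitted change was -0.21 ± 0.09 at 2D2 (adjusted p = 0.0606) and -0.17 ± 0.09 at 1D4 (adjusted p = 0.151). With the GAPDH difference as a covariate, it was -0.04 ± 0.10 at 2D2 (adjusted p = 0.938) and -0.11 ± 0.09 at 1D4 (adjusted p = 0.449). The 2 MUC13 probe sets below the filter had mean changes from own baseline of 0.05 and 0.06 at 2D2, and of -0.01 and -0.13 at 1D4.

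**Figure D3:**
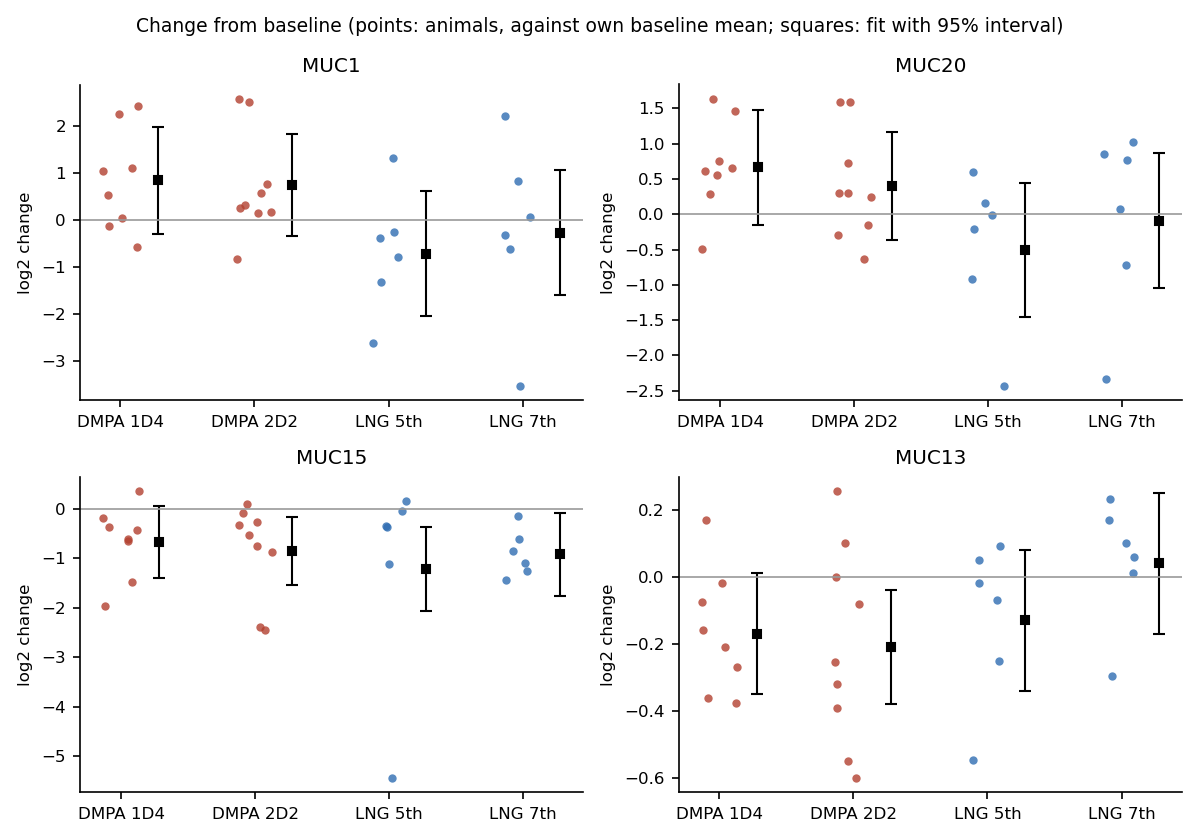
Change in log2 expression from the animal's own baseline mean (1 point per animal) and the fitted change with its 95% interval (squares) at each treated time. MUC15 points lie mostly below 0 at all 4 times, and 8 of 9 MUC1 points lie above 0 at DMPA 2D2.

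Markers of other tissue layers stood beside these values. At 2D2 the mean of 14 mature squamous genes had a lowest value of 7.18, a median of 8.08 and a highest value of 12.10, against 9.14, 12.76 and 13.17 in the baseline samples of these animals, and 12 of the 14 passed, all downward, with a median change of -3.80. Of 11 columnar epithelial genes, 8 passed upward and 1 downward, with a median change of 0.74, beside 0.05 over all genes. Of 4 basal keratinocyte genes 3 passed upward, CAV1, ITGA6 and ITGB4. TP63 did not, and its change was -0.19 (adjusted p = 0.153) in the fit without the BB4800 sample. In that sample, where TP63 was lowest, CAV1 was above all 56 others, ITGA6 above 30 and ITGB4 above 16. The 3 genes that rose thus did not follow TP63 there, and their rise is not a measure of basal cells alone. Of 10 stromal genes none passed (none at an unadjusted p under 0.05 either). Without the BB4800 sample 14 of the 14 squamous genes passed. At 1D4 11 of the squamous genes passed downward, 6 columnar genes passed upward and 1 downward, and 3 basal genes passed upward. The stromal list had a median change of 1.39 at 1D4, beside 0.01 over all genes, with 1 of the 10 passing, upward, and 7 at an unadjusted p under 0.05. In the fit without that sample, 3 stromal genes passed upward at 1D4. Their part in the mucin values was not tested.

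After LNG, none of the 4 members passed at either time. None of all probe sets passed at the 5th time (0%) and 2 passed at the 7th (0.00632%), while 21.6% and 23.7% of all probe sets had an unadjusted p under 0.05. When the BB4800 sample was left out, 0% passed at the 5th time and 2.16% (684 of 31624) at the 7th, and still no member. Among the members, 1 had an unadjusted p under 0.05 at each time, MUC15 both times.

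MUC15 at the 5th time had values of 9.84, 9.99 and 10.86 in the High animals and 4.62, 9.09 and 9.94 in the Low animals. At the 7th time it had 9.27, 9.44 and 10.21 in the High animals and 8.75, 8.98 and 9.45 in the Low ones. The 11 baseline samples of these animals had a lowest value of 9.28, a median of 10.29 and a highest value of 10.95. All 6 animals were below their own baseline at the 7th time, by 0.14 to 1.44, and 5 of 6 at the 5th. Of the 12 treated samples 5 were below the lowest baseline value, and the value of 4.62, from BB4800, was far below all others.

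The fitted change of MUC15 was -1.22 ± 0.42 at the 5th time (adjusted p = 0.0917) and -0.92 ± 0.42 at the 7th (adjusted p = 0.173). Without the BB4800 sample, the change at the 5th time was -0.36 ± 0.30 (adjusted p = 0.721), whereas that at the 7th was -0.90 ± 0.28 (adjusted p = 0.062). That animal's MUC15 value at the 7th time was 8.98. Without the samples labelled (A-), the 5th change was -1.52 ± 0.47 (adjusted p = 0.0366), a fit that still holds the BB4800 sample. The GAPDH 3' minus 5' difference had medians of 2.17 at the 5th time and 2.02 at the 7th, against 1.45 in the baseline samples of these animals. With it as a covariate, the MUC15 change was -0.71 ± 0.38 at the 5th time (adjusted p = 0.69) and -0.35 ± 0.39 at the 7th (adjusted p = 0.873).

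MUC1 and MUC20 were widely spread after LNG, and their lowest values came from the same samples. MUC1 had 8.88, 9.85 and 10.75 in the High animals and 8.20, 11.09 and 11.38 in the Low animals at the 5th time, and 6.67, 10.02 and 11.64 in the High and 10.89, 11.45 and 12.17 in the Low animals at the 7th. Its 11 baseline samples had a lowest value of 7.51, a median of 11.14 and a highest value of 12.26. The lowest MUC1 value of all 57 samples, 6.67, and a MUC20 value of 7.47 came from BB269 at the 7th time. BB4800 at the 5th time had 8.20 for MUC1 and 7.29 for MUC20, the lowest MUC20 value of all.

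MUC1 changed by -0.71 ± 0.66 at the 5th time (adjusted p = 0.565) and by -0.26 ± 0.66 at the 7th (adjusted p = 0.829), with 1 of 6 and 3 of 6 animals above their own baseline. MUC20 changed by -0.50 ± 0.47 (adjusted p = 0.573) and -0.09 ± 0.47 (adjusted p = 0.925), with 2 of 6 and 4 of 6 animals above. The 5th changes of both genes include the BB4800 sample. Over 27 alternatives, the fit without it among them, they ranged from -1.15 to -0.29 for MUC1 and from -0.74 to -0.02 for MUC20. Over the 4 members the median 5th change was -0.60 with that sample and -0.22 without it. Without the samples labelled (A-), the changes at the 7th time turned positive, at 1.13 for MUC1 and 1.02 for MUC20, and neither passed. Of the 6 samples at that time 4 bear the mark, so this fit rests on BB967 and BB4800 there. The intervals were wide: that of MUC1 at the 5th time ran from -2.04 to 0.62, which takes in lower as well as higher levels. MUC13 had values of 6.06 to 6.63 at the 5th time and 6.31 to 6.79 at the 7th, against 6.09 to 6.73 at baseline, and changes of -0.13 ± 0.10 (adjusted p = 0.492) and 0.04 ± 0.10 (adjusted p = 0.838).

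The marker lists differed after LNG as well. At the 5th time the mean of the mature squamous genes had a lowest value of 6.77, a median of 9.54 and a highest value of 13.12, and at the 7th time 7.46, 9.72 and 13.06, against 9.96, 12.77 and 13.19 in the baseline samples of these animals. The mean of the stromal genes had 6.97, 11.05 and 12.42 at the 5th time and 9.35, 9.46 and 11.33 at the 7th, against 6.85, 8.65 and 10.75. None of these genes passed, while 14 of 14 squamous and 10 of 10 stromal genes had an unadjusted p under 0.05 at the 5th time, and 12 and 5 at the 7th. At the 7th time 4 of the 14 squamous genes passed without the BB4800 sample, all downward, and none did at the 5th. Their part in the mucin values was not tested.

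No member passed between the times of an arm or between the arms. DMPA 2D2 minus 1D4 was between -0.27 and -0.04 for the 4 genes, and LNG 7th minus 5th between 0.17 and 0.45, each with an adjusted p of 1. No probe set of the whole array passed in either comparison (0%), with 5.23% and 2.99% at an unadjusted p under 0.05. The DMPA 2D2 change minus the LNG 5th change was 1.46 ± 0.85 for MUC1 (95% interval -0.25 to 3.17, adjusted p = 0.638), 0.90 ± 0.61 for MUC20 (adjusted p = 0.697), 0.37 ± 0.54 for MUC15 (adjusted p = 0.885) and -0.08 ± 0.14 for MUC13 (adjusted p = 0.905). No probe set passed there either (0%), with 8.5% at an unadjusted p under 0.05. The MUC15 difference between the arms turned to -0.49 without the BB4800 sample (adjusted p = 0.897). The median difference over the 4 members was 0.64 with that sample and 0.19 without it.

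By DMPA dose, the brighter MUC15 probe set had an order at 1D4 that the dimmer one did not share. At that time its 2 samples at dose 0.5 were at 10.02 and just below it, those at dose 1.5 at 9.22, 9.36 and 9.53, and those at dose 2.5 at 8.44, 8.50 and 8.73. The doses did not overlap at 1D4, whereas the medians of the same animals at baseline were 9.70, 9.75 and 9.91. At 2D2 the values were 8.54, 9.37 and 10.30 at dose 0.5, 7.52, 9.50 and 9.85 at dose 1.5, and 7.53, 8.29 and 9.71 at dose 2.5, and the doses overlapped. The dimmer MUC15 probe set had medians of 6.86, 7.29 and 5.79 at doses 0.5, 1.5 and 2.5 at 1D4, with dose 1.5 (6.42 to 7.43) overlapping dose 2.5 (5.72 to 6.64). The order of the brighter one was seen in the data and was not tested. The slope at 2D2, the comparison tested, was -0.52 ± 0.37 per labelled dose unit (adjusted p = 0.638).

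Other measures also differed between the doses at 1D4. The mean of the mature squamous genes there had medians of 12.56, 8.63 and 8.26 at doses 0.5, 1.5 and 2.5, and the GAPDH 3' minus 5' difference had 1.49, 2.03 and 2.14. Their part in the order of MUC15 was not tested. The 2D2 slopes of the other members were -0.25 ± 0.66 for MUC1, -0.23 ± 0.46 for MUC20 and -0.01 ± 0.11 for MUC13, with adjusted p values of 0.922, 0.89 and 0.986. No member passed, beside 0.00632% of all probe sets.

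Between the LNG dose labels at the 5th time, High minus Low in the change was 2.36 ± 0.76 for MUC15 (adjusted p = 0.114), 0.92 ± 1.35 for MUC1 (adjusted p = 0.786), 0.77 ± 0.94 for MUC20 (adjusted p = 0.734) and -0.01 ± 0.22 for MUC13 (adjusted p = 0.985), and 0.734% of all probe sets passed. The MUC15 value rested on BB4800, 1 of the 3 Low animals. Without that sample it was 0.70 ± 0.59 (adjusted p = 0.775), and none of all probe sets passed. The mature squamous genes also differed between the dose labels, with a median High minus Low of 4.39 and 4 of 14 passing, all upward. Without that sample their median was 4.34 and none passed. Their part in the mucin values was not tested.

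Across all 57 samples, with each animal's mean subtracted, MUC1 and MUC20 varied together (r = 0.91, and 0.91 without the BB4800 sample). MUC1 ran against MUC13 (r = -0.54, and -0.58 without it). MUC15 had little relation to MUC1 (r = 0.07, and -0.17 without it) or to MUC20 (r = 0.22, and -0.07 without it). The 4 genes thus held 1 close pair, with MUC15 apart from it.

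**Figure D4:**
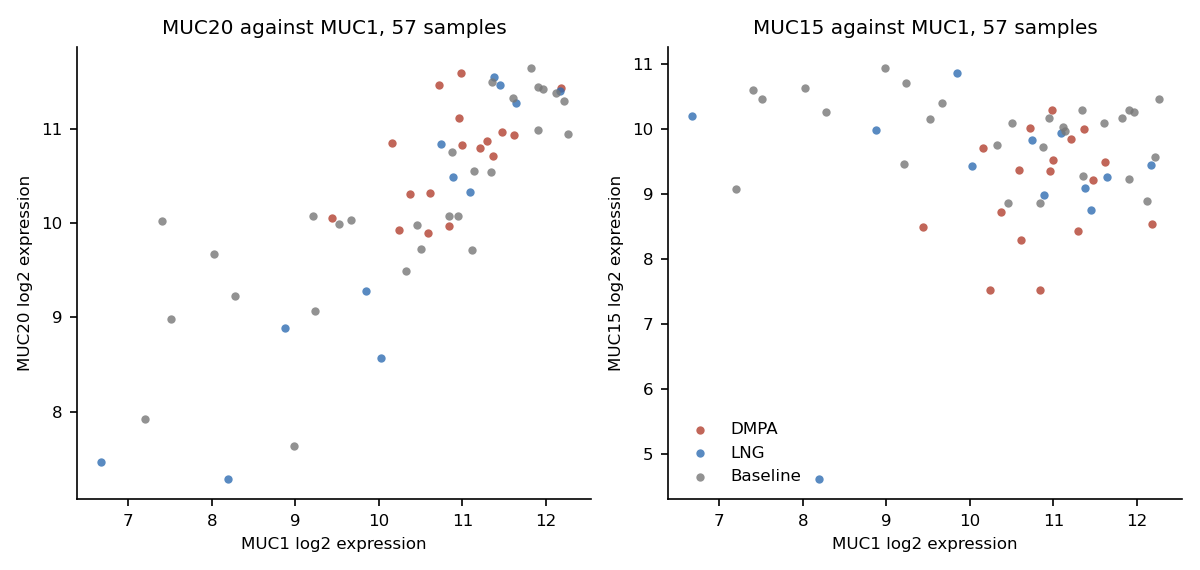
Log2 expression of MUC20 (left) and MUC15 (right) against MUC1, with 1 point per sample, coloured by arm or baseline. MUC20 rises with MUC1 over the whole range, whereas MUC15 does not, and 1 LNG sample lies far below the rest at 4.62.

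The genes whose pattern was most like each mucin's were ranked by r over the same 57 samples, with other mucins left out. For MUC1 they were GABRP (r = 0.91), a subunit of the GABA-A receptor, S100P (r = 0.86), a calcium-binding protein, and LOC700672 (r = 0.82). For MUC20 they were TMPRSS2 (r = 0.84), a membrane serine protease, GABRP again (r = 0.84) and LOC701920 (r = 0.83). GABRP itself passed at 2D2 (2.06 ± 0.76, adjusted p = 0.0403), at 1D4 (2.28 ± 0.81, adjusted p = 0.0377) and in the late luteal minus early follicular comparison (2.78 ± 0.77, adjusted p = 0.02).

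For MUC15 the nearest genes were SH3RF2 (r = 0.94), RAB25 (r = 0.94), a small GTPase of epithelial recycling endosomes, and INAVA (r = 0.93). Without the BB4800 sample these were 0.87, 0.87 and 0.88. RAB25 passed at 2D2, at -0.96 ± 0.32 (adjusted p = 0.0246). For MUC13 they were GJA3 (r = 0.77), a connexin of gap junctions, GPR152 (r = 0.76), an orphan receptor, and EMX1 (r = 0.74).

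The enzymes that build the O-linked sugars of mucins moved in both directions. Of 34 listed, 24 were measured. At DMPA 2D2 4 passed upward and 4 downward, a share close to the 31.3% of all genes that passed. The median change was 0.10 over the list and 0.05 over all genes. Of the GALNT transferases, which add the first sugar, GALNT14 rose by 1.01 ± 0.21 (adjusted p = 0.000973), GALNT11 by 0.36 ± 0.08 (adjusted p = 0.00124) and GALNT12 by 0.61 ± 0.21 (adjusted p = 0.0306). ST6GALNAC2, a sialyltransferase, rose by 0.67 ± 0.24 (adjusted p = 0.0329). The other GALNT transferases that were measured did not pass at 2D2.

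The 4 that fell at 2D2 act after the first sugar has been added, as does ST6GALNAC2, which rose. GCNT1, which makes the core 2 branch, fell by 1.32 on the log2 scale (SE 0.33, adjusted p = 0.00347), and B3GNT6, which makes core 3, fell by 0.50 (SE 0.16, adjusted p = 0.0214). ST3GAL1, which adds sialic acid to core 1, fell by 0.84 (SE 0.18, adjusted p = 0.000953), and the sulfotransferase GAL3ST2 fell by 0.23 (SE 0.08, adjusted p = 0.0302). At 1D4 2 passed upward, GALNT14 (1.01 ± 0.22, adjusted p = 0.00472) and ST3GAL4 (0.58 ± 0.17, adjusted p = 0.0146), and 4 downward, among them ST3GAL1 (-0.81 ± 0.19, adjusted p = 0.00512), beside 25.8% of all genes.

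In the late luteal minus early follicular comparison 5 of the 24 passed, beside 14.8% of all genes. GALNT15 was higher by 2.63 ± 0.77 (adjusted p = 0.0254), GALNT12 by 0.80 ± 0.22 (adjusted p = 0.0198) and ST6GALNAC2 by 0.87 ± 0.25 (adjusted p = 0.0235). GALNT7 (-0.78 ± 0.27, adjusted p = 0.0477) and ST3GAL1 (-0.56 ± 0.18, adjusted p = 0.033) were lower. The median over the list was 0.04, beside -0.01 over all genes. After LNG none of the 24 passed at the 5th time, with 8 at an unadjusted p under 0.05, and none at the 7th, with 7. GCNT1 was nearest at the 5th time (-1.44 ± 0.40, adjusted p = 0.0582). Without the BB4800 sample, GCNT1 (-1.61 ± 0.40, adjusted p = 0.0438) and GALNT14 (1.00 ± 0.26, adjusted p = 0.0447) passed at the 7th time, beside 2.16% of all probe sets.

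Of 15 listed proteins that bind surface mucins or cut their outer domains, 13 were measured. At 2D2 3 of the 13 passed, beside 31.3% of all genes, all upward and all small: the adapter GRB2 by 0.23 ± 0.07 (adjusted p = 0.00896), the kinase SRC by 0.32 ± 0.11 (adjusted p = 0.0315) and the sheddase ADAM10 by 0.26 ± 0.09 (adjusted p = 0.0376). At 1D4 ADAM9 (0.49 ± 0.15, adjusted p = 0.0194) and ADAM10 (0.27 ± 0.10, adjusted p = 0.0485) passed upward, beside 25.8% of all genes. The membrane protease MMP14 was higher by 1.12 ± 0.25 (adjusted p = 0.00918) in the late luteal than in the early follicular phase, the only one of the 13 that passed there, beside 14.8% of all genes. These shares of the list are below those of all genes. After LNG none passed, with 4 at an unadjusted p under 0.05 at the 5th time and 3 at the 7th.

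Of 15 genes of the secretory program, which supply mucus and its helper proteins or switch them on, 9 were measured. Of these, 2 passed upward and 2 downward at each DMPA time, beside 31.3% of all genes at 2D2 and 25.8% at 1D4. At 2D2 the transcription factor FOXA1 rose by 1.72 ± 0.45 (adjusted p = 0.0056) and FCGBP, a protein secreted with mucus, by 1.69 ± 0.57 (adjusted p = 0.0252). The transcription factor KLF4 fell by 1.31 on the log2 scale (SE 0.26, adjusted p = 0.000627) and the trefoil peptide TFF3 by 0.39 (SE 0.11, adjusted p = 0.0077). At 1D4, which shares its baseline samples, FCGBP (2.44 ± 0.60, adjusted p = 0.00684) and FOXA1 (1.29 ± 0.48, adjusted p = 0.0461) passed upward and KLF4 (-1.52 ± 0.27, adjusted p = 0.00208) and TFF3 (-0.49 ± 0.11, adjusted p = 0.00548) downward. FOXA1 was also higher in the late luteal than in the early follicular phase (1.47 ± 0.49, adjusted p = 0.043). It was the only 1 of the 9 that passed there, beside 14.8% of all genes. After LNG none of the 9 passed, with 3 and 2 at an unadjusted p under 0.05.

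Of 13 other mucins, 2 were measured, the secreted MUC2 and MUCL3. Neither passed after DMPA, beside 31.3% of all genes at 2D2 and 25.8% at 1D4. The changes at 2D2 were -0.16 ± 0.09 for MUC2 (adjusted p = 0.179) and -0.28 ± 0.14 for MUCL3 (adjusted p = 0.139). Between the phases they split. In late luteal minus early follicular, MUC2 was lower, at -0.34 ± 0.09 (adjusted p = 0.0175), and MUCL3 was higher, at 0.45 ± 0.16 (adjusted p = 0.0471). Both passed, beside 14.8% of all genes.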

How the data were processed

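The authors deposited 1 column of log2 expression values per array, between 1.37 and 14.57, with array medians of 6.07 to 6.25; the submitters' processing notes name affy and Partek, and how the arrays were normalized is not stated in them. Groups, doses and phases come from the labels. No further normalization was applied. From the 52865 probe sets, 158 controls and then every probe set whose mean was below the 40th percentile were dropped, so that 31624 were tested. The late follicular duplicate array of 1 animal was averaged with its pair, and 57 samples entered the fits.

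Models were fitted to all samples with limma 3.58.1 and statmod 1.5.0 in R 4.3.3, with the animal as a fixed block because its biopsies come from the same animal, with Benjamini-Hochberg adjustment of p over all probe sets of a comparison. Treated times were compared with the pooled baseline of the same animals, luteal with follicular phases with equal weights, and the DMPA dose as a linear term. The fits were tested on simulated data. Alternatives changed the block, the filter, array weights, an RNA quality term, centring, the duplicate and the animals included.

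The members, the gene lists and the tests were chosen with earlier results of these data known. All members with a kept probe set were named, with the 3 genes of the highest correlation to each, and the genes of each list that passed or had the smallest p.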

Additional observations from a re-analysis of the deposited data

Results flagged for a closer look

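1 of 32 combinations of gene and condition had a sample far from the others of its group. In the 6 LNG 5th samples, the MUC15 value of animal BB4800 was 4.62 on the log2 scale, and the nearest of the others was 9.09. That gap is 0.717 of the group's whole range, above the critical value of 0.625 for 6 samples. Chance alone flags about 1 in 20 groups of this kind. The same sample had the lowest TP63, EPCAM and KRT13 values of all 57 samples, at 5.79, 5.45 and 10.42.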

How the results depend on the processing

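The MUC1 difference of late luteal minus early follicular kept its sign in all 25 alternatives and its call in 12. In that comparison 1 member passed, and 0 passed with the animal as a random block, with array weights, with the GAPDH covariate, without a filter and with no replicate block, 2 without the LNG 5th sample of BB4800, and 0 to 2 when each animal was left out in turn (MUC15 passed too without BB4800, and MUC13 without PHQ1). The replicate numbers in the labels do not pair samples, so the pairing is by animal, and with no replicate block the MUC1 difference was 1.36 (adjusted p = 0.229). At DMPA 2D2 no member passed, against 2 with a random block, with array weights and with no replicate block, 1 with the phases as separate groups, with a filter at the 60th percentile and without the BB4800 sample, and 0 to 2 with an animal left out (MUC15 without BB4800 or BB770, MUC13 without BB770 or PHQ1). At 1D4 1 passed with array weights and without the BB4800 sample, and 0 to 1 with an animal left out (MUC15 without BB4800). For LNG, 1 passed at the 5th time without the (A-) samples (0 to 1 with an animal left out, MUC15 without BB4870), 1 at the 7th with array weights, and 1 in High minus Low with a random block and with no replicate block (0 to 1 with an animal left out, MUC15 without BB173 or BB537). Without the BB4800 sample 30% of all probe sets passed at 2D2, 25.2% at 1D4 and 15.2% in late luteal minus early follicular. For the other alternatives the share of all probe sets is not given here. Their member counts therefore cannot be set against a background, and may move with it. The signs of values near 0 turned as follows. With no replicate block, MUC1 was 0.11 in 2D2 minus 1D4, 0.12 at LNG 7th and -0.40 in High minus Low, MUC13 was 0.00 for the dose slope, MUC15 was -0.10 in the arm difference and MUC20 was -0.06 in High minus Low. With a random block, MUC1 was 0.01 in 2D2 minus 1D4. With array weights, MUC13 was 0.13 for the dose slope, MUC15 was -0.16 in the arm difference and -0.29 in 7th minus 5th, and MUC20 was 0.15 at LNG 7th. With the GAPDH covariate, MUC13 was 0.07 in 2D2 minus 1D4 and 0.16 for the dose slope, and MUC15 was 0.06 at 2D2 and 0.37 in 2D2 minus 1D4. With arrays centred, MUC13 was -0.01 at LNG 7th and 0.02 in High minus Low. Without the (A-) samples, MUC1 was 1.13, MUC20 1.02 and MUC13 -0.02 at LNG 7th. Without the BB4800 sample, MUC13 was 0.04 and MUC20 -0.12 in High minus Low, MUC15 was -0.49 in the arm difference and -0.54 in 7th minus 5th, and MUC20 was -0.03 in 7th minus 5th. With each animal left out in turn, the ranges that crossed 0 were as follows. MUC1 ranged from -0.45 to 0.10 for the dose slope, from -0.79 to 0.42 at LNG 7th and from 0.00 to 0.98 in 7th minus 5th. MUC13 ranged from -0.08 to 0.00 in 2D2 minus 1D4, from -0.10 to 0.10 for the dose slope and from -0.12 to 0.19 in High minus Low. MUC15 ranged from -0.51 to 0.65 in the arm difference, from -0.39 to 0.03 in 2D2 minus 1D4 and from -0.52 to 0.64 in 7th minus 5th. MUC20 ranged from -0.33 to 0.38 at LNG 7th, from -0.15 to 0.78 in 7th minus 5th and from -0.07 to 1.32 in High minus Low. The cause of these changes was not tested. MUC13 rests on 1 probe set, and the LNG comparisons rest on 6 animals.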
